A study of Bos taurus with 6 samples.

Results

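The distal end of bovine chromosome 29 was described as all CpGs at or beyond position 48500000 of the UMD3.1 genome that were covered by 5 to 500 reads in all 6 libraries of a reduced representation bisulfite sequencing (RRBS) data set. This choice used position and coverage only, and it gave 20142 CpGs, which is 33.4% of the 60280 such CpGs on chromosome 29 and 1.27% of the 1580644 in the series. The libraries came from 3 cell types with 2 libraries each, every library from a different Holstein animal. Sperm came from commercial straws of frozen bull semen. Monocytes were purified from the blood of cows with beads against CD14, a surface protein of these cells. Fibroblasts were grown from ear skin biopsies of adult females, called cows in the labels and heifers in the study's methods, and cultured to passage 11. Sex and cell type cannot be told apart between sperm and the somatic cells, nor can culture and cell type for fibroblasts. PCR used 14 cycles for sperm and fibroblasts and 12 for monocytes. No group was treated, and no other ages are given. In RRBS the enzyme MspI cuts at CCGG whatever its methylation, bisulfite converts unmethylated cytosines, and the percentage of reads with an unconverted cytosine gives the methylation of a CpG.

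The end of this chromosome is known for an imprinted domain, in which genes are expressed from the copy inherited from 1 parent. IGF2 encodes a fetal growth factor expressed mainly from the paternal copy, H19 gives a non-coding RNA from the maternal copy, and a control region near H19 carries methylation on the paternal copy. In the neighbouring cluster, CDKN1C and PHLDA2 restrain growth and are expressed from the maternal copy, and KCNQ1OT1, an antisense RNA inside KCNQ1, starts at a control region that is methylated on the maternal copy. Regions of this kind are therefore fully methylated or unmethylated in sperm and intermediate in somatic cells, which hold both copies. CpGs at 35 to 65% in both somatic cell types and below 10% or above 90% in sperm were accordingly located. The deposited values do not separate the parental copies, and their part in an intermediate value was not tested.

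The label of this domain was checked by gene names only. Of 23 genes listed for the domain and its flank, 21 were found on chromosome 29 in the RefSeq table of another assembly (ARS-UCD2.0), in the order OSBPL5, NAP1L4, PHLDA2, SLC22A18, CDKN1C, KCNQ1, TRPM5, TSSC4, CD81, TSPAN32, ASCL2, TH, INS, IGF2, H19, MRPL23, TNNT3, LSP1, TNNI2, SYT8 and CTSD, with 64 further genes between CTSD and the end of the chromosome. KCNQ1OT1 and CARS, also listed, were not found under these names, so that the check did not cover them. Genes were not assigned to the UMD3.1 positions given here. Nothing below links a position to a gene or to a known control region, and no sequence was read, since no genome of this build was used.

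The selected CpGs ran from position 48501184 to 51504474. They lay at 6.70 CpGs per kb, against 0.828 on the rest of the chromosome, with a median of 18 reads per CpG and library in both. Within the MspI fragments the neighbouring CpGs were similarly close, with a median spacing of 15 and 16 bp. Over all distal CpGs of a library, the summed coverage was lowest in monocyte replicate 2 (414143 reads) and highest in fibroblast replicate 2 (677853 reads). At the border, the last CpG outside (position 48499694) was at 2.9% and 0% in sperm (0 of 32 reads, which allows up to 9.38%) and between 82.8% and 100% in the somatic libraries, and the first CpG inside was at 100% in all 6 libraries.

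Distal chromosome 29 was more methylated than the rest of the chromosome in every library, and most so in sperm. Averaged over the distal CpGs, replicates 1 and 2 of sperm stood at 76.5% and 76.4%, those of monocytes at 71.3% and 71.1% and those of fibroblasts at 62.3% and 62.8%. The cell types did not overlap, with sperm highest and fibroblasts lowest. On the rest of the chromosome sperm stood at 52.4% and 51.9%, monocytes at 56.5% and 56.2% and fibroblasts at 47.3% and 47.6%, so that there the monocytes and not the sperm were highest. Sperm exceeded the mean of the somatic libraries by 9.58 points in the distal CpGs (exact two-sided permutation test, p = 0.133). On the rest of the chromosome the difference was 0.245 points (exact permutation p = 0.800).

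**Figure D1:**
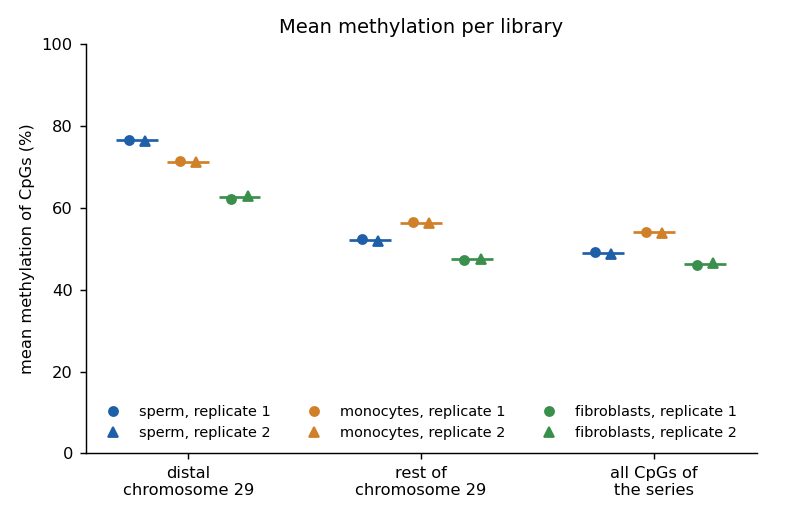
Mean methylation of the CpGs (%, vertical axis) in distal chromosome 29, the rest of chromosome 29 and the whole series, with 1 point per library (circle, replicate 1; triangle, replicate 2) and a bar at the mean of the 2 replicates. Sperm is above monocytes and fibroblasts in the distal CpGs, and between them in the other sets.

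The distal CpGs were higher than the rest of the chromosome by 24.3 ± 0.30 points in sperm (SD, n = 2 libraries), by 14.9 ± 0.00793 points in monocytes and by 15.1 ± 0.173 points in fibroblasts. The excess was thus 9.34 points larger in sperm than in the somatic libraries (p = 0.0667 in an exact permutation test, which is the lowest p that 2 against 4 libraries allow). This value moved with how the CpGs were weighted. With 1 CpG per kb it was 3.72 points (exact permutation p = 0.133), with the rest of the chromosome at 73.9% in sperm, 72.7% in monocytes and 55.5% in fibroblasts. Between a pair of cell types the smallest possible p is 0.333, which was reached for sperm against monocytes (5.24 points higher in the distal CpGs), for sperm against fibroblasts (13.9 points) and for monocytes against fibroblasts (8.69 points).

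The distal CpGs differed between the cell types in how many were intermediate and far less in how many were hypomethylated. A CpG was called hypomethylated below 20%, hypermethylated above 80% and intermediate between these limits. Hypomethylated CpGs made up 20.5 ± 0.169% of the distal CpGs in sperm (SD, n = 2), 20.9 ± 0.369% in monocytes and 20.7 ± 0.246% in fibroblasts, and these ranges overlapped. Intermediate CpGs made up 3.42% and 4.06% in sperm replicates 1 and 2, came to 12.6% and 12.7% in the monocyte replicates and reached 34.6% and 34.0% in the fibroblast replicates. The intermediate share in sperm was 19.7 points below that of the somatic libraries (exact two-sided permutation test, p = 0.133). The rest of the chromosome had hypomethylated shares of 44.4 ± 0.157% (sperm), 36.8 ± 0.167% (monocytes) and 39.5 ± 0.245% (fibroblasts). There sperm had the most hypomethylated CpGs, by 6.26 points over the somatic libraries (exact permutation p = 0.0667, the smallest possible).

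By the classes of the 3 cell type means, 37.9% of the distal CpGs were hypermethylated in all cell types. The next most frequent combination was hypermethylation in sperm and monocytes with an intermediate level in fibroblasts, at 22.4%, followed by hypomethylation in all cell types, at 13.6%. Of the distal CpGs, 4.76% were hypermethylated in sperm and intermediate in both somatic cell types, and 1.45% were hypomethylated in sperm and intermediate in both. On the rest of the chromosome these shares were 3.14% and 2.11%.

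The higher level in sperm was spread along most of the distal end. In 31 windows of 100 kb, with 44 to 1355 CpGs each, both sperm libraries were above all 4 somatic libraries in 25 windows and below all of them in 1. The last window was cut short, from 51500000 to 51504474 with 44 CpGs. It is 1 of the 25 and holds the highest window means of sperm and monocytes. Window means ranged from 42.9% to 97.7% in sperm, from 39.3% to 94.7% in monocytes and from 36.8% to 78.7% in fibroblasts. The window with the lowest mean, the 24th from the border, was the lowest in all 3 cell types. The window where sperm was below every somatic library began 2.5 Mb after the border, and sperm stood there at 50.9%, below monocytes at 61.8% and fibroblasts at 53.9%.

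**Figure D2:**
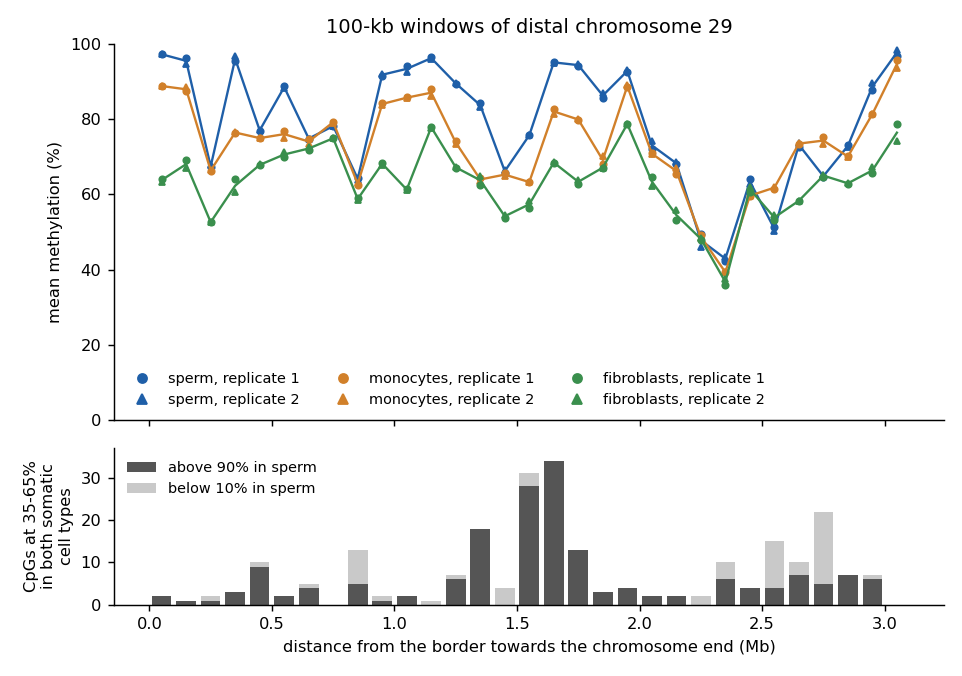
Upper panel: mean methylation (%) of 31 windows of 100 kb against the distance of the window from the border (Mb), with lines at the cell type means and points for the libraries. The last window is shorter, ending at the last CpG. Lower panel: number of CpGs per window at 35 to 65% in both somatic cell types that were above 90% (dark) or below 10% (light) in sperm, with the most in the window that starts 1.6 Mb from the border, at 34.

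Differentially methylated CpGs (DMCs) were called over all 1580644 CpGs by logistic regression on the reads summed over replicates (likelihood-ratio test). A call needed a difference of at least 25 points and a p below 0.01 after Benjamini-Hochberg adjustment. This test ignores the spread between animals. A stricter test, the edgeR quasi-likelihood test, includes that spread, and its counts are given beside it. Between monocytes and sperm, 3364 distal CpGs were DMCs (16.7%, against 18.8% of all CpGs), and 2083 of these were higher in sperm. The share higher in sperm was 10.3% of the distal CpGs against 5.48% of all CpGs, and the share higher in monocytes was 6.36% against 13.3%. The edgeR test called 2036 distal CpGs (10.1%, against 12.5% of all), of which 1278 were higher in sperm (6.34%, against 3.16% of all) and 758 in monocytes (3.76%, against 9.31%).

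Between fibroblasts and sperm, 6583 distal CpGs were DMCs (32.7%, against 28.3% of all CpGs). Of these, 5292 were higher in sperm (26.3%, against 16.2% of all) and 1291 in fibroblasts (6.41%, against 12.1%). The edgeR test called 3070 (15.2%, against 15.1% of all), of which 2294 were higher in sperm (11.4%, against 7.31% of all) and 776 in fibroblasts (3.85%, against 7.75%). Between monocytes and fibroblasts, 4298 were DMCs (21.3%, against 17.0% of all), with 3209 higher in monocytes (15.9%, against 13.7% of all) and 1089 in fibroblasts (5.41%, against 3.30%). The edgeR test called 1019 distal CpGs (5.06%, against 4.05% of all), with 586 higher in monocytes (2.91%, against 2.89%) and 433 in fibroblasts (2.15%, against 1.16%). Fibroblasts were thus higher in 42.5% of the distal calls with edgeR and in 25.3% with the logistic regression. With a difference of at least 50 points, the excess of distal calls between fibroblasts and sperm shrank to 16.7% against 16.4% of all CpGs. Without monocyte replicate 1, which leaves 1 monocyte library, fibroblasts were higher in 31.5% of the distal logistic regression calls between the somatic cell types. On the rest of the chromosome this share was 20.3%.

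Distal DMCs of both sperm comparisons numbered 1361 with sperm higher (6.76%, against 3.56% of all CpGs), and 999 with sperm lower (4.96%, against 10.4%). On the rest of the chromosome these shares were 4.07% and 9.81%. Joined over gaps of up to 1000 bp, DMCs of 1 direction formed 272 regions higher in sperm, of which 109 were single CpGs, and 126 regions lower in sperm, of which 48 were single CpGs.

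The region with the most DMCs higher in sperm, chr29:50251770-50255165, held 48 DMCs among 80 covered CpGs. Sperm averaged 97.6% and 98.3% there, monocytes 45.1% and 45.9% and fibroblasts 23.2% and 32.1%. Both somatic cell types were thus far below sperm, and fibroblasts were below monocytes in every library. At chr29:50026695-50028416, with 37 DMCs of 42 CpGs, sperm stood at 97.7% and 98.2%, monocytes at 8.67% and 9.24% and fibroblasts at 30.4% and 37.9%. At chr29:49876950-49878674, with 32 DMCs of 43 CpGs, sperm stood at 97.6% and 97.5%, monocytes at 4.24% and 4.27% and fibroblasts at 34.1% and 32.1%. In these last regions the monocytes were almost unmethylated and only the fibroblasts were intermediate, so that they differ from the pattern searched for.

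The region with the most DMCs lower in sperm, chr29:51023345-51025722, held 65 DMCs of 98 covered CpGs. Sperm stood there at 3.81% and 3.72%, monocytes at 68.1% and 64.0% and fibroblasts at 39.8% and 49.8%. At chr29:51295568-51296591, with 47 DMCs of 64 CpGs, sperm stood at 2.00% and 6.04%, monocytes at 72.3% and 70.2% and fibroblasts at 87.7% and 86.9%. At chr29:51292584-51294132, with 46 DMCs of 53 CpGs, sperm stood at 9.14% in both libraries, monocytes at 59.9% and 65.9% and fibroblasts at 65.7% and 77.4%. All 3 of these regions lay closer to the end of the chromosome than the 3 regions higher in sperm.

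Between the replicates of a cell type, the same logistic regression called 187 distal CpGs in sperm (0.928%, against 0.309% of all CpGs), 43 in monocytes (0.213%, against 0.173%) and 103 in fibroblasts (0.511%, against 0.693%). The share in sperm was also above the 0.364% on the rest of the chromosome. These calls between single animals were far fewer than those between cell types. They compared 1 library with 1, however, and so rested on fewer reads than the sums over replicates. The counts are therefore not a like measure of the spread between animals.

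CpGs with the pattern searched for, intermediate in both somatic cell types and extreme in sperm by the means of the replicates, numbered 238 in the distal end (1.18%, against 0.915% of all CpGs in the series and 0.715% on the rest of the chromosome). The limits chose them, so that their counts and values are a description. In 179 of them sperm was above 90% (0.889% of the distal CpGs, against 0.393% of all) and in 59 below 10% (0.293%, against 0.522% of all), while the rest of the chromosome held 176 and 111. Per CpG of the same level in sperm, the order of the directions was the reverse. Of the distal CpGs above 90% in sperm, 1.21% were intermediate in both somatic cell types, against 0.921% on the rest of the chromosome, and of those below 10% in sperm, 1.55% were, against 0.659%. A further 45 distal CpGs were intermediate in both somatic cell types and neither above 90% nor below 10% in sperm. All 6 libraries met the limits singly in 38 of the 238 CpGs. They did so in 48 of the 287 such CpGs on the rest of the chromosome and in 2690 of the 14466 in the series. Among CpGs with the pattern this was thus not more frequent in the distal end. A median of 18 reads gives 1 CpG only a coarse percentage, and for this reason runs of neighbouring CpGs were considered.

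The densest stretches of the 2 kinds of CpG lay apart. Of the 179 CpGs above 90% in sperm, 75 lay between 1.5 and 1.8 Mb from the border, where 15.9% of the distal CpGs are. Of the 59 CpGs below 10% in sperm, 31 lay between 2.5 and 2.8 Mb, where 14.5% of the distal CpGs are. These were the 3 consecutive windows that held the most CpGs of each kind, chosen by their counts. The share of CpGs with the pattern reached 3.59% in the window at 1.6 Mb.

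A run was at least 3 such CpGs of the same sperm class, with neighbours at most 200 bp apart and other covered CpGs allowed between them. Distal chromosome 29 held 16 runs with 90 of the 238 CpGs, 10 above 90% in sperm and 6 below 10%. This was 0.794 runs per 1000 covered CpGs, against 0.274 on the rest of the chromosome, which held 11 runs, and 0.646 over chromosomes 1 to 29 and X, which held 1015. The distal runs were 9 to 625 bp long, with a median of 7.79 covered CpGs per 100 bp, and 50 to 850 reads over CpGs lay behind each library's value. Since 1 read covers several CpGs, these reads are not independent. The 12 runs with the most CpGs of the pattern are described one by one below, with the mean over all covered CpGs of the run.

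**Figure D3:**
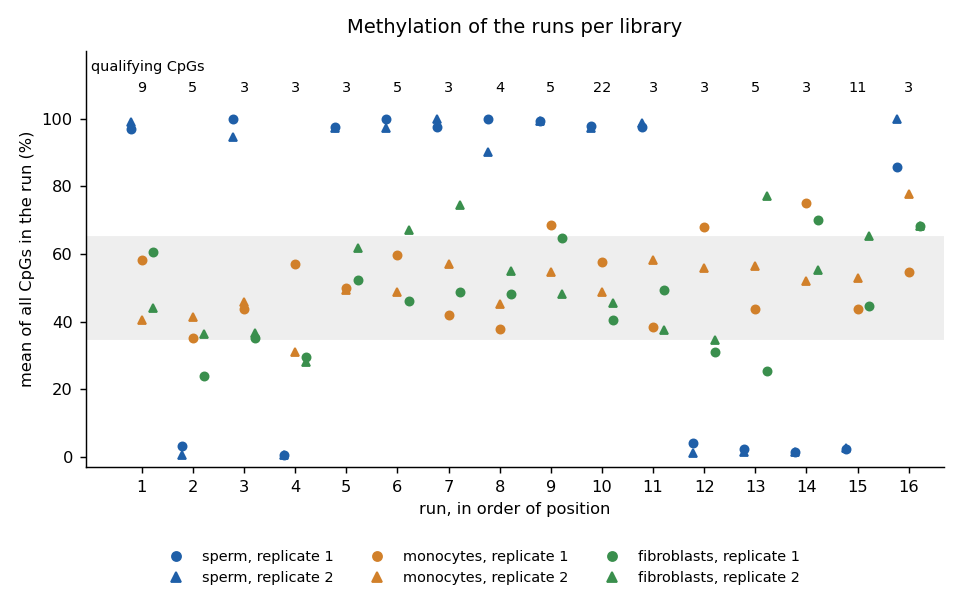
Mean methylation (%) over all covered CpGs of each of the 16 runs, in order of position, with 1 point per library (circle, replicate 1; triangle, replicate 2) and the band of 35 to 65% in grey. Numbers over the points count the CpGs with the pattern in each run, from 3 to 22. Sperm lies above 90% or below 10% except in run 16, where replicate 1 is at 85.7%, and the somatic libraries lie between 23.9% and 77.9%, with the widest gap between replicates in the fibroblasts of run 13.

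Among the runs methylated in sperm, the largest was run 10, chr29:50150851-50151475, 625 bp with 22 CpGs of the pattern among 28 covered. Sperm replicates 1 and 2 averaged 97.8% and 97.4%, the monocyte replicates 57.6% and 48.7% and the fibroblast replicates 40.6% and 45.4%. All 4 somatic libraries lay between 35% and 65%. Of the reads, 57.5% were methylated in monocyte replicate 1 (exact 95% interval 53.3 to 61.6%, counting error only) and 49.4% in monocyte replicate 2 (44.7 to 54.2%). Over single CpGs the means of the replicates ranged from 28.9% to 66.1% in monocytes and from 15.6% to 59.9% in fibroblasts. The rule chose CpGs at these levels, so that a difference between a run and its flanks follows from the choice, and flanks are given as a description. Within 2 kb before the run monocytes stood at 71.4% and fibroblasts at 46.7% over 12 CpGs, and within 2 kb after it at 68.6% and 28.7% over 16 CpGs, with sperm at 94.4% and 92.8%.

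**Figure D4:**
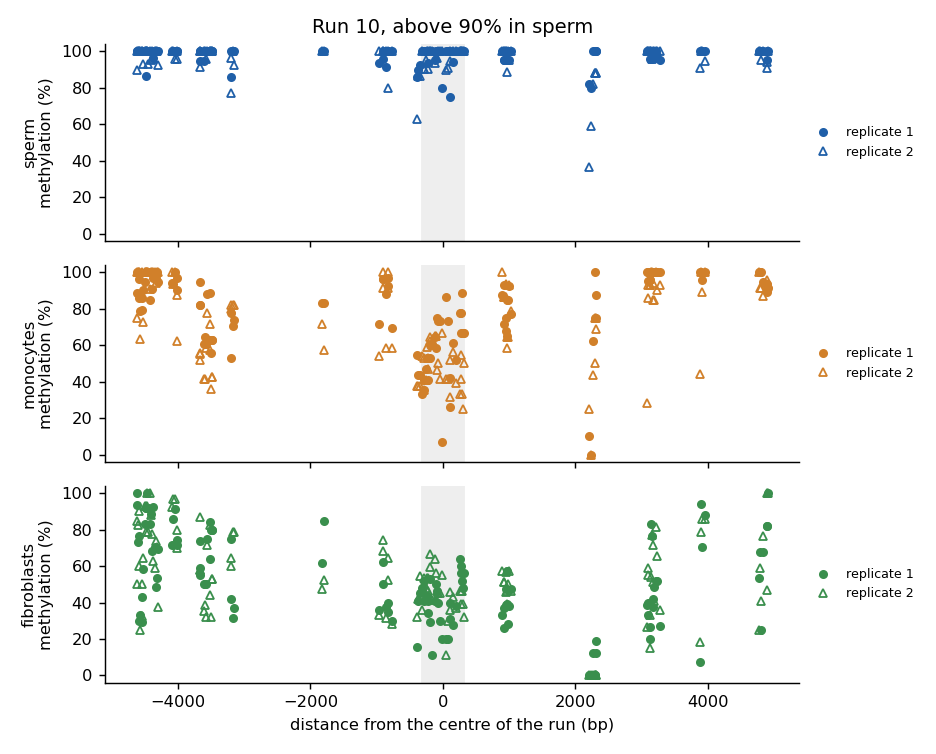
Methylation of single CpGs (%) against the distance from the centre of run 10 (bp), with a panel for each cell type, filled circles for replicate 1 and open triangles for replicate 2; the grey band marks the run. Most sperm CpGs are near 100%, with lower ones down to 36.3% in replicate 2 on the right side, where some CpGs of both somatic cell types are at 0%. The fibroblasts are spread over a wide range on both sides of the run.

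Run 9, chr29:50147555-50147663, ended 3187 bp before run 10 and held 5 CpGs of the pattern among 7. Sperm stood at 99.2% and 99.4%, monocytes at 68.7% and 54.7% and fibroblasts at 64.7% and 48.1%. Before it, over 32 CpGs, monocytes stood at 92.0% and fibroblasts at 73.4%.

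Run 1, chr29:48907795-48908059, the nearest to the border, held 9 CpGs of the pattern among 13. Sperm stood at 97% and 99.1%, with 58.3% and 40.6% in monocytes and 60.7% and 43.9% in fibroblasts. All somatic libraries were within 35 to 65%, although replicate 1 was above replicate 2 in both cell types. Over the 9 CpGs within 2 kb before it sperm was at 1.4%, against 89.0% in monocytes and 79.7% in fibroblasts, so that sperm changed from unmethylated to methylated at this run.

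Runs 5, 6 and 7 lay within 1017 bp, at chr29:50048928-50049088, chr29:50049336-50049392 and chr29:50049904-50049944, with 3, 5 and 3 CpGs of the pattern among 8, 5 and 4. In run 5 sperm stood at 97.4% and 97.2%, monocytes at 49.9% and 49.4% and fibroblasts at 52.4% and 61.8%. Here the monocyte replicates differed by less than 1 point. In run 6 the sperm libraries stood at 100% and 97.3%, the monocytes at 59.7% and 48.8% and the fibroblasts at 46.1% and 67.2%. Run 7 stood at 97.7% and 100% in the sperm replicates, and its monocytes at 42.1% and 57.2% and fibroblasts at 48.8% and 74.6%. In both, fibroblast replicate 2 was above 65%. Within 2 kb after run 7, over 46 CpGs, sperm stood at 0.8%, monocytes at 3.8% and fibroblasts at 3.4%. The 3 runs thus ended at a stretch that was unmethylated in every cell type.

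Run 8, chr29:50061202-50061226, began 11257 bp further on, and all of its 4 covered CpGs had the pattern. Sperm stood at 100% and 90.2%, monocytes at 37.9% and 45.3% and fibroblasts at 48.2% and 55.1%. Run 3, chr29:49812881-49813148, held 3 CpGs of the pattern among 6, with sperm at 100% and 94.5%, monocytes at 43.6% and 45.8% and fibroblasts at 35.1% and 36.8%. The means of all 4 somatic libraries were within the limits in both runs. In run 3, however, single CpGs ranged from 5.9% to 97.3% in monocytes and from 2.9% to 74.7% in fibroblasts by the mean of the replicates, so that its means average CpGs of very different levels. In run 8 these ranges were 38.5% to 45.9% and 46.7% to 60.2%. Before run 3, over 39 CpGs, monocytes stood at 47.8% and fibroblasts at 37.9%.

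Among the runs unmethylated in sperm, the largest was run 15, chr29:51293311-51293508, 198 bp with 11 CpGs of the pattern among 21, inside the region with 46 DMCs lower in sperm. Sperm stood at 2.4% and 2.6%, monocytes at 43.7% and 53.0% and fibroblasts at 44.7% and 65.4%. Single CpGs of fibroblasts ranged from 26.9% to 93.1% by the mean of the replicates, against 38.1% to 60.2% in monocytes. Within 2 kb on either side monocytes stood at 82.4% and 67.0% and fibroblasts at 80.1% and 85.2%, with sperm at 27.3% and 18.1%.

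**Figure D5:**
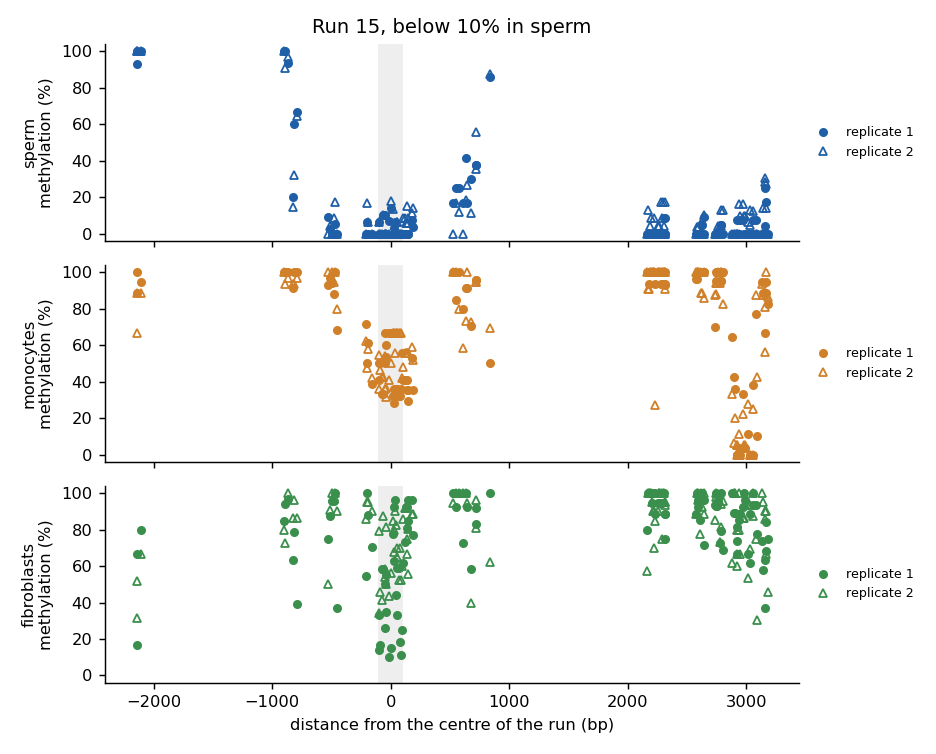
Methylation of single CpGs (%) against the distance from the centre of run 15 (bp), with a panel for each cell type, filled circles for replicate 1 and open triangles for replicate 2; the grey band marks the run. Within the band, sperm is between 0% and 18.1%, monocytes are between 28.5% and 66.6%, and fibroblast CpGs scatter from 10.0% to 96.2% in replicate 1. Outside it, CpGs reach 100% in every cell type.

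Run 13, chr29:51070518-51070602, held 5 CpGs of the pattern among 8, with sperm at 2.4% and 1.5% and monocytes at 43.7% and 56.4%. The fibroblast libraries stood at 25.3% and 77.1%, so that their mean lay within the limits and neither library did. The logistic regression called 3 of its CpGs between the fibroblast replicates. Run 2, chr29:49328924-49329129, held 5 CpGs of the pattern among 9, with sperm at 3.3% and 0.7%, monocytes at 35% and 41.4% and fibroblasts at 23.9% and 36.4%. Run 4, chr29:49954745-49954926, held 3 among 13, with sperm at 0.5% and 0.6%, monocytes at 57.1% and 30.9% and fibroblasts at 29.5% and 28.2%. In these 3 runs at least 1 somatic library lay outside 35 to 65%. After run 4, over 85 CpGs, all cell types were low, with sperm at 0.5%, monocytes at 4.7% and fibroblasts at 5.4%, so that this run lay at the edge of an unmethylated stretch.

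The other 4 runs held 3 CpGs of the pattern each, 2 of them methylated and 2 unmethylated in sperm. Sperm stood between 85.7% and 100% in the methylated runs, the lowest value being 1 library of run 16 outside the limit, and between 1.2% and 4.13% in the unmethylated runs. The somatic library means ranged from 38.5% to 77.9% in monocytes and from 31% to 70.1% in fibroblasts. Over all 16 runs, the 4 somatic libraries were each within 35 to 65% in 6, all of them methylated in sperm.

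The runs were then looked for in 1 replicate and read in the other, which the rule had not used. In replicate 1 the distal end gave 5 runs methylated and 2 unmethylated in sperm. In the replicate 2 libraries sperm stayed above 90% or below 10% in all 7, with the methylated runs between 95.6% and 100%. Both somatic cell types were at 35 to 65% in replicate 2 in 3 of the 5 methylated runs and in neither of the 2 unmethylated runs. The 3 that met all limits overlapped runs 1, 9 and 10. At the last, chr29:50150815-50151055, the means in replicate 2 were 95.6% in sperm, 53.6% in monocytes and 52.5% in fibroblasts, and 95.5% of its sperm reads were methylated (exact 95% interval 92.6 to 97.5%, counting error only). In the other direction, runs found in replicate 2 and read in replicate 1, a choice made after the data were seen, 3 of 7 methylated and 1 of 6 unmethylated runs met all limits, and sperm did in all 13. On the rest of the chromosome 14 runs were found in replicate 1, of which 5 met all limits in replicate 2, and 9 were found in replicate 2, of which 5 met them in replicate 1. Per 1000 covered CpGs, replicate 1 gave 0.348 runs in the distal end and 0.349 on the rest of the chromosome, and replicate 2 gave 0.645 and 0.224. The higher density of runs in the distal end was thus seen in replicate 2 and not in replicate 1. With 1 library per cell type no test was made.

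On the rest of chromosome 29, the 11 runs comprised 4 methylated and 7 unmethylated in sperm, and the largest held 6 CpGs of the pattern against 22 in the distal end. This largest run, chr29:44396835-44397166, had sperm at 0.5% and 1.7%, monocytes at 42.0% and 32.3% and fibroblasts at 42.8% and 43.0%. At chr29:7240037-7240067, with 4 such CpGs, both sperm libraries were at 0%, monocytes at 33.7% and 37.8% and fibroblasts at 53.3% and 45.2%. The sperm values rest on 45 and 50 reads over CpGs, with a median of 9 and 10 reads per CpG. Counted as independent, these reads allow up to 7.87% and 7.11% (exact 95% interval). Since 1 read covers several CpGs, the actual limits are wider. At chr29:40842934-40843172, also with 4 such CpGs, sperm stood at 97.7% and 100%, monocytes at 49.0% and 36.2% and fibroblasts at 58.8% and 64.7%. Runs of both kinds were thus present far from the distal end.

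The distal end of chromosome 29 was also set beside the last stretch of the same length of the 28 other autosomes. These held 9 to 277 CpGs of the pattern, with a median of 107.5, and 1 of them had at least the 238 of chromosome 29. As a share of the covered CpGs the pattern took 0.339% to 1.78% (median 0.922%), and 6 other ends reached the 1.18% of chromosome 29. The other ends held 0 to 22 runs (median 6.5), and 2 held at least 16. Per 1000 CpGs, 12 of the 28 had at least as many runs, and in 3 the largest run held at least 22 CpGs of the pattern. Mean sperm methylation was 29.7% to 81.9% at the other ends (median 69.6%), and 4 reached the 76.4% of chromosome 29. Sperm was also above both somatic cell types at the ends of chromosomes 2, 3, 6, 11, 17, 22, 25 and 26. On chromosome 11, for example, sperm stood at 75.2%, monocytes at 71.3% and fibroblasts at 62.5%. At the ends not listed, sperm was not above both. Of the other ends, 3 held at least as many covered CpGs as the 20142 of chromosome 29. The count of CpGs with the pattern was thus high among chromosome ends, while its share and the density of runs were within the range of the others.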

How the data were processed

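Methylation was measured by RRBS in 2 sperm, 2 monocyte and 2 fibroblast libraries, with groups taken from the labels and with MspI fragments of 40 to 290 bp read as 75 bp pairs. The submitters' processing notes name Trim Galore 0.3.7, Bismark 0.14.3, Bowtie, FastQC and methylKit, with reads mapped to UMD3.1. For each CpG the authors deposited the coverage as counts of reads, not normalized, and the methylated share as a percent to 1 decimal. Methylated reads were recovered as the nearest whole number to coverage times percent. The depth was 45884839 to 78890776 reads summed over CpGs, and the coverage sets the precision of a single CpG. PCR reads carry no molecular identifiers, and intervals cover counting error only.

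The members and lists were chosen with earlier results of these data known. CpGs covered by 5 to 500 reads in all 6 libraries were used. Exact two-sided permutation tests over libraries compared the means per library and cannot reach 0.05 here. DMCs were tested over all CpGs with Benjamini-Hochberg adjustment, and were tested on simulated data of chromosome 29 in which 2000 of 60280 CpGs differed by 50 points. The logistic regression recovered 78.2% between monocytes and sperm (7 false calls) and 83.7% between fibroblasts and sperm (9 false calls), and edgeR 50.5% and 58.8% (1 false call each). The simulated replicates of a cell type shared 1 methylation level per CpG, and the adjustment ran over the 60280 CpGs only. False calls from spread between animals could therefore not arise, and their rate in the real data was not tested. The 12 runs named were those with the most CpGs of the pattern, ties by lower position, and beside them the 3 largest runs of the rest of the chromosome and the 3 regions with the most DMCs in each direction. Alternatives were other coverage limits, weights, borders, limits of the pattern, gaps, tests and thresholds, a replicate block, and leaving out each library. Replicate numbers name different animals and were not used to pair libraries. The analyses used Python 3.11.15 (scipy 1.17.1, numpy 2.4.6, numba 0.67.0, pandas 2.3.3, matplotlib 3.10.9) and R 4.3.3 with edgeR 4.0.16 (common dispersion 0.111, from 20000 CpGs).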

Additional observations from a re-analysis of the deposited data

Results flagged for a closer look

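The difference between monocytes and sperm had opposite signs in the distal CpGs and on the rest of chromosome 29. Monocytes minus sperm was -5.24 points in the distal CpGs and 4.20 points on the rest of the chromosome, with every sperm library above both monocyte libraries in the first and below both in the second. These differences lay 9.43 points apart, with an exact permutation p of 0.333, the lowest that 2 against 2 libraries allow, so that the difference could not be tested against a threshold of 0.05. With 1 CpG per kb, sperm was above monocytes in both.

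Outside the CpGs covered in all 6 libraries, 7924 distal CpGs had 5 to 500 reads in at least 1 library of each cell type. Of these, 100 showed the pattern (1.26%), with 73 above 90% and 27 below 10% in sperm. The values can rest on 1 library of a cell type. No such share was counted outside the distal end, so that 1.26% has no background beside it.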

How the results depend on the processing

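The mean difference of sperm from somatic cells kept its direction under all settings tried, at 8.90 to 13.6 points in the distal CpGs and 3.72 (1 CpG per kb) to 13.8 points (weighted by coverage) for the distal excess over the rest. Without single libraries these ranges were 8.05 to 11.1 and 9.12 to 9.55 points. The exact permutation tests cannot reach 0.05, so that their p-values say nothing about stability.

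Counts moved with the threshold by construction. Distal DMCs with a difference of 50 points were 2375 between monocytes and sperm (11.8%, against 14.2% of all CpGs), 3372 between fibroblasts and sperm (16.7%, against 16.4%) and 2038 between the somatic cell types (10.1%, against 7.99%). With at least 10 reads, which leaves 12346 distal CpGs, they were 2164 between monocytes and sperm (17.5%, against 19.5% of all CpGs so covered). They were 4153 between fibroblasts and sperm (33.6%, against 28.2%). Between the somatic cell types they were 2784, with fibroblasts higher in 25.4% of these calls, against 17.6% of such calls on the rest of the chromosome. With the edgeR quasi-likelihood test they were 2036 (10.1%, against 12.5% of all CpGs), 3070 (15.2%, against 15.1%) and 1019 (5.06%, against 4.05%). Without single libraries they were 2946 to 3182, 5286 to 6169 and 2848 to 3799. In a fit with replicate block the distal DMCs were 3193 between monocytes and sperm (15.9%, against 17.9% of all CpGs). They were 6074 between fibroblasts and sperm (30.2%, against 26.4%). Between the somatic cell types they were 3887, with fibroblasts higher in 27.1% of these calls, against 18.1% of such calls on the rest of the chromosome. Same-numbered libraries did not deviate together (r between -0.00324 and 0.00421), so that the numbers do not pair them. With the block, the exact tests cannot reach 0.05 either.

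CpGs with the pattern were 147 with at least 10 reads (1.19% of the distal CpGs so covered). They were 429 with somatic limits of 30 to 70% (2.13%), 115 with 40 to 60% (0.571%) and 38 with every library within the limits (0.189%). Runs were 33, 8 and 2 under the last 3 of these. With at least 5 CpGs they were 7, against 1 on the rest of the chromosome and 388 over chromosomes 1 to 29 and X. Of bins of 100 bp, 38 of 3368 had the pattern (1.13%), against 55 of 6157 (0.893%) on the rest of the chromosome. Whether the distal excess holds under the changed somatic limits or with at least 10 reads was not tested. Runs found in single replicates were denser than on the rest of the chromosome in replicate 2 only. With at least 10 reads per CpG, sperm minus the somatic mean moved from 56.9 to 74.5 points in run 3. It moved from -44.6 to -28.7 points in run 12 and from 25.5 to 47.8 points in run 16. In the other runs it changed less. Without single libraries there were 219 to 252 CpGs and 13 to 17 runs.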

Other observations

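Among the 187 distal CpGs called between the sperm replicates, 141 regions were formed over gaps of up to 1000 bp. The one with the most calls, chr29:50701073-50701119, was at 75.7% in sperm replicate 1 and 3.8% in sperm replicate 2 over 7 CpGs. The somatic libraries were all high there, with monocytes at 99.2% and 99.0% and fibroblasts at 85.1% and 91.2%. Each sperm library is 1 bull, so that a difference between bulls and one between libraries cannot be told apart.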
